A study of Bos taurus with 2 samples.

Results

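The genes described here are the vascular endothelial growth factor (VEGF) ligands and their receptors in fetal skeletal muscle of Japanese Black cattle. They are 10 genes, of which 5 are ligands (*VEGFA*, *VEGFB*, *VEGFC*, *VEGFD* and *PGF*) and 5 are receptors or co-receptors (*FLT1*, *KDR*, *FLT4*, *NRP1* and *NRP2*), among 26714 genes on the array. A probe without a matched gene symbol was counted here under the transcript name of the array's design, so that the 26714 hold 12603 named genes and otherwise unnamed transcripts, and a gene may be counted more than once. They were chosen by name as a gene family, and their probes were found through the RefSeq transcript that the array's design gives for each probe. A probe was matched for 9 of the 10 genes. No probe was matched for *FLT4*, which was not analysed here.

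The longissimus thoracis (LT) muscle, a long muscle of the back, was taken from fetuses at 8.5 months of gestation (day 260 ± 8.3). The dams were fed 120% (high nutrition, HN) or 60% (low nutrition, LN) of the nutritional requirement before and throughout gestation, and the methods state that all were inseminated with male-sorted semen of the same sire. For each diet, the RNA of 4 fetuses was pooled and hybridised to 1 Agilent one-colour array, so that the series consists of 2 arrays of the same slide. The methods state that the fetuses with the highest body weight were chosen for the HN pool and those with the lowest for the LN pool. Diet, this selection by body weight and the position on the slide cannot be told apart, and no dams fed the plain requirement were included.

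VEGF ligands are secreted proteins that direct the growth, survival and permeability of vessels by binding receptor tyrosine kinases on endothelial cells. *VEGFA* binds both *FLT1* and *KDR*. *KDR* carries most of the signal for endothelial growth, while *FLT1* binds *VEGFA* tightly, signals weakly and also exists as a soluble decoy. *VEGFB* and *PGF* bind *FLT1*, *VEGFC* and *VEGFD* act mainly through *FLT4* on lymphatic vessels, and the neuropilins *NRP1* and *NRP2* present ligands to these receptors. In skeletal muscle, *VEGFA* is made largely by the muscle fibres and is needed for the capillary bed around them.

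Values are spot intensities, in arbitrary units, and their log2 after quantile normalization, which gives both arrays the same distribution. A difference is written as log2 LN/HN, which is negative where the signal was lower in the LN pool. With 1 array per group there was no replicate check and no test, and a log2 difference of 0.322, a size the study also used, served only to count by. The software that read the arrays gave each spot an error, 10 to 14% for HN and 10 to 16.9% for LN over the 22 member probes that were detected, which makes an error of 0.20 to 0.31 in log2 LN/HN. It was never under 10% for a member probe, however bright. The scatter measured on the arrays was smaller. Over 42 probes printed in several spots, at a median log2 signal of 8.31, the log2 LN/HN of a single spot had an SD of 0.085. Over the probes of a gene, the median SD was 0.0995 (7139 genes with 2 or more probes). None of these errors includes the spread between fetuses. A pool holds all cells of the muscle, so fewer cells of a type and less RNA per cell cannot be told apart.

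Of the spots, 74.5% were well above background for HN and 70.9% for LN, and none were saturated. The tissue label was checked with skeletal muscle genes: 12 of 14 were matched, all 12 were detected, and the median log2 signal of their brightest probes was 17.1 in HN and 16.8 in LN. Skeletal α-actin, *ACTA1*, had a log2 signal of 17.57 in HN and 17.53 in LN.

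The array held 23 probes for the 9 genes, and 22 of them were well above background in both pools. Of the 9 genes, 0 differed by 0.322 in either direction, beside 9.11% of the 19554 genes with a value that were past this size lower in LN and 8.85% that were past it higher. *VEGFA*, *VEGFB* and *VEGFD* were higher in LN and the other 6 genes were lower, and the median over the 9 genes was -0.20, beside -0.0033 over all genes. Of all genes, 50.7% were lower in LN and 49.3% higher, and these shares stand beside every count by direction below. The 3 genes on the higher side were ligands, while all 4 measured receptors and neuropilins were on the lower side.

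**Figure D1:**
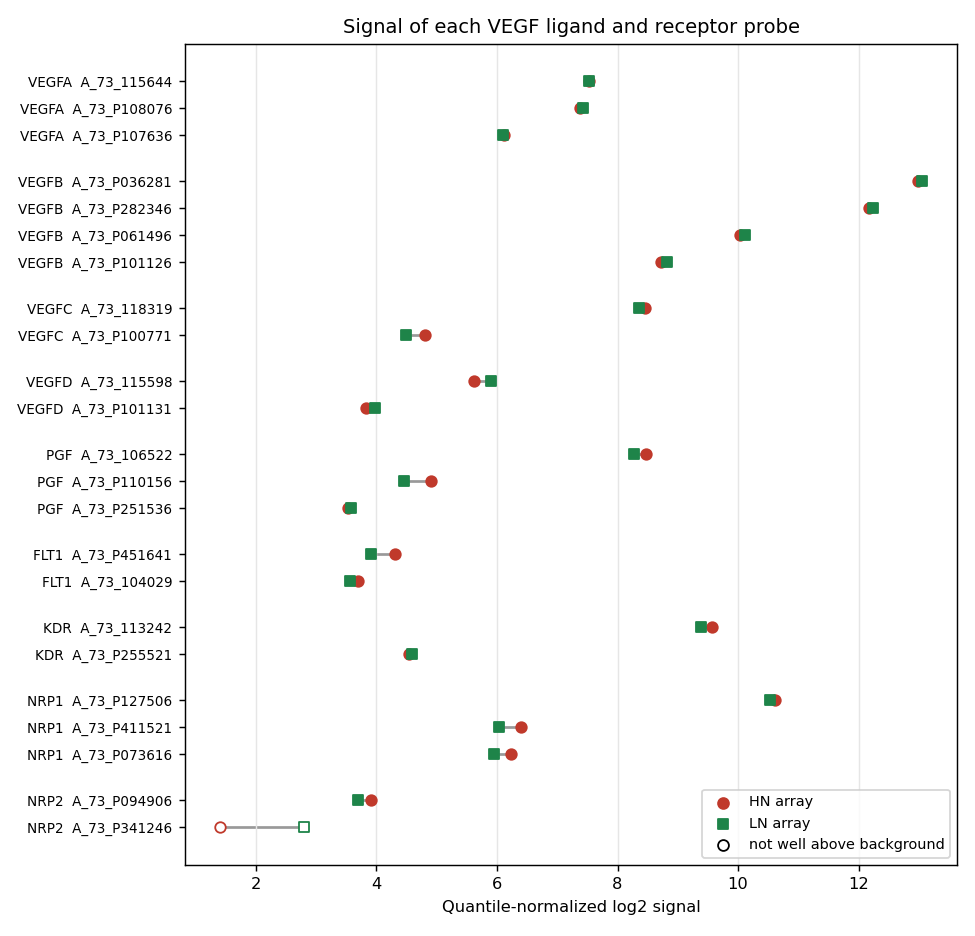
Quantile-normalized log2 signal (horizontal axis) of each of the 23 probes of the 9 genes, with the HN array as a circle, the LN array as a square and a grey line joining them. Filled symbols are well above background, which holds for 22 probes on both arrays, and the open pair is the second *NRP2* probe.

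*VEGFA*, the main growth factor for blood vessels, had a value close to 0. Its 3 probes, all designed on transcript NM_174216, had intensities of 183, 69.8 and 165 in HN and 187, 68.5 and 174 in LN. The log2 LN/HN was 0.0021, -0.020 and 0.058, each with a software error of 0.20 or 0.21. The gene's mean was 0.013 ± 0.041 (SD over 3 probes), and 53.6% of all genes had a lower value, close to the middle of the array.

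*VEGFB*, a ligand of *FLT1* that is abundant in muscle and heart, was slightly higher in LN with all of its probes. The 4 probes (NM_174487) had intensities of 8029, 1031, 416 and 4575 in HN and 8575, 1128, 458 and 4873 in LN. The log2 LN/HN lay between 0.060 and 0.10, with a mean of 0.080 ± 0.018 (SD over 4 probes), or 1.06-fold. Each of these differences was smaller than the software error of its own probe, 0.20.

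*PGF*, placental growth factor, binds *FLT1* but not *KDR*. Its 3 probes (NM_173950) had intensities of 350, 30.6 and 12.1 in HN and 312, 21.5 and 11.3 in LN. The log2 LN/HN was -0.19, -0.45 and 0.044 in the same order, and the probes thus did not share a direction. The second of them was 1.37-fold lower in LN, the largest difference among the 22 detected member probes. The gene's mean was -0.20 ± 0.25 (SD over 3 probes), a spread larger than the value itself.

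The lymphatic ligands lay on opposite sides. *VEGFC* (NM_174488), which drives the sprouting of lymphatic vessels, was lower in LN with both probes, at 348 and 28.5 in HN and 330 and 21.9 in LN. The log2 LN/HN was -0.10 and -0.317, the second just short of the size counted, with a mean of -0.21 ± 0.15 (SD over 2 probes). *VEGFD* (NM_001101043), the closest relative of *VEGFC*, was higher in LN with both probes, at 49.8 and 14.7 in HN and 59.2 and 15.2 in LN. Its log2 LN/HN was 0.27 and 0.16, with software errors of 0.21 and 0.27, and the mean was 0.21 ± 0.078 (SD over 2 probes). *VEGFD* was the highest of the 9 members, above 84.2% of all genes. *FLT4*, the main receptor of both, has no value here.

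Among the receptors, *FLT1* (NM_001191132) had the lowest reported value of the 9 members, but not under every processing. With the median instead of the mean over probes, *NRP1* was lower, at -0.28 beside -0.26 for *FLT1*. The *FLT1* probes had intensities of 13.5 and 20.3 in HN and 11.3 and 14.6 in LN, and both lay low in the range of the array. The log2 LN/HN was -0.13, within its software error of 0.31, and -0.38, beyond its error of 0.26. The mean was -0.26 ± 0.18 (SD over 2 probes), 1.19-fold lower in LN, and 12.9% of all genes had a lower value.

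*KDR* (NM_001110000), the main signalling receptor of endothelial cells, was measured by probes that disagreed. The first had an intensity of 753 in HN and 681 in LN, a log2 LN/HN of -0.18 with a software error of 0.20. The second had 23.9 in HN and 23.6 in LN, which after normalization was 0.051. The mean was -0.065 ± 0.16 (SD over 2 probes), and no direction can be read from it beyond the spread of its probes.

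*NRP1* (NM_001205660), which binds *VEGFA* and strengthens signalling through *KDR*, was lower in LN with all 3 probes. The intensities were 75.3, 1531 and 84.7 in HN and 61.5, 1505 and 65.7 in LN. The log2 LN/HN was -0.28, -0.072 and -0.36, of which the first and last were beyond their software error of 0.21 and the middle one was well within its error of 0.20. The mean was -0.24 ± 0.15 (SD over 3 probes), or 1.18-fold lower.

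*NRP2* (NM_001193237), the neuropilin that pairs mainly with *FLT4* on lymphatic and venous endothelium, rests on 1 probe. It had an intensity of 15.7 in HN and 12.3 in LN, a log2 LN/HN of -0.23 with a software error of 0.29. The second *NRP2* probe was not well above background on either array, with an intensity of 3.06 in HN and 6.47 in LN and software errors of 40.7% and 24.8%, and it entered no value. Taken without regard to background, that probe would have been higher in LN by 1.39, opposite to the first.

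Set side by side, the 5 ligands had a median log2 LN/HN of 0.013 and ranged from -0.21 to 0.21, while the 4 receptors and neuropilins had a median of -0.23 and ranged from -0.26 to -0.065. Of the ligand probes, 9 of 14 were higher in LN, and of the receptor and neuropilin probes, 7 of 8 were lower. Over all genes, 49.3% were higher and 50.7% lower, and these shares were not counted over all probes. The 2 ranges overlap through *KDR*, which lay above *VEGFC* and *PGF*, and the order of *FLT1*, *NRP1* and *NRP2* against these ligands changed with the setting: with the brightest probe, *NRP1* was -0.072 beside -0.10 for *VEGFC* and -0.19 for *PGF*. Over the settings, the ligand median ran from -0.0096 to 0.032 and the receptor and neuropilin median from -0.322 with the 75th percentile to -0.076 after normexp. Probes of the same gene share their RNA and are not replicates, and the difference between ligands and receptors could not be tested. For scale, the 10th and 90th percentiles over all genes were -0.31 and 0.30, and all 9 members lay between them.

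**Figure D2:**
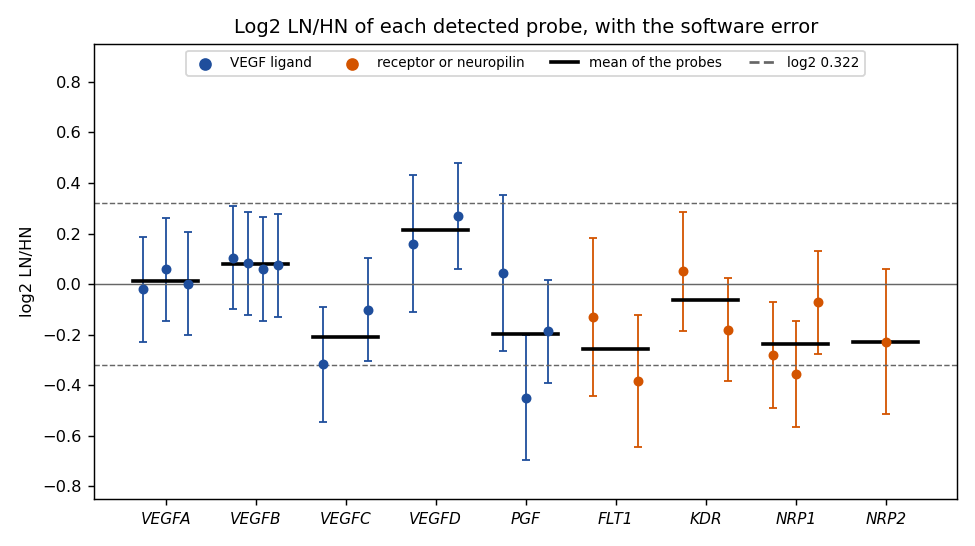
Log2 LN/HN (vertical axis) of the 22 detected probes, grouped by gene, with bars for the software error of each and a black line for the gene's mean. Ligand probes spread to both sides of 0, 7 of 8 receptor and neuropilin probes lie below it, and 3 probes, of *PGF*, *FLT1* and *NRP1*, lie below the dashed line at -0.322.

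At the level of probes, 3 of 22 were past 0.322 lower in LN (*PGF*, *FLT1* and *NRP1*) and 0 higher, beside 8.31% lower and 8.59% higher of the 30639 probes measured on both arrays. The difference was larger than the software error in 6 of the 22 probes, 1 each of *VEGFC*, *VEGFD*, *PGF* and *FLT1* and both lower *NRP1* probes. In 0 of 22 did it exceed 2 software errors. The same shares over all probes were not counted, so these counts cannot be read against the rest of the array.

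Differences spread more widely among dim probes. The 8 member probes with a mean log2 signal of 8 or more lay between -0.19 and 0.10, with a median of -0.0062, and the 14 below that lay between -0.45 and 0.27, with a median of -0.075. The same widening was seen over all probes, whose 10th to 90th percentiles ran from -0.19 to 0.18 at a log2 signal of 10 or more and from -0.38 to 0.37 between 4 and 6. Against probes of like brightness, 4 member probes lay below the 10th percentile (1 each of *PGF* and *FLT1* and 2 of *NRP1*), 18 lay within the band and 0 lay above the 90th. Within a gene there was no common order: the largest difference came from the brightest probe in *FLT1*, *KDR* and *VEGFD*, and from a dimmer one in *VEGFA*, *VEGFB*, *VEGFC*, *PGF* and *NRP1*. Of the receptor and neuropilin probes, the 2 at a log2 signal of 8 or more had a median of -0.13 (-0.18 to -0.072). The 6 dimmer probes had a median of -0.25 (-0.38 to 0.051). For the ligands, the medians were 0.067 over 6 brighter probes and 0.023 over 8 dimmer probes. The part of brightness in the receptor values was not tested.

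**Figure D3:**
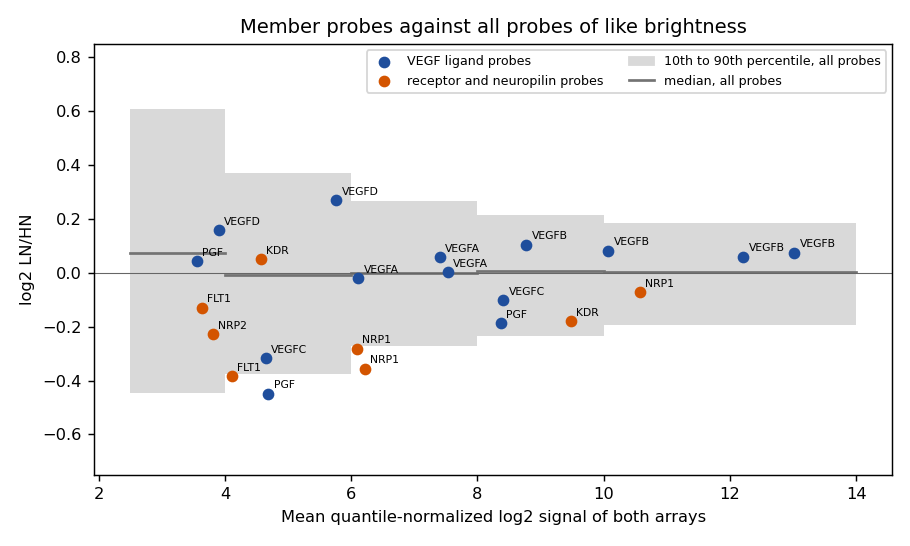
Log2 LN/HN (vertical axis) of each detected member probe against its mean log2 signal (horizontal axis), with the 10th to 90th percentile band and the median of all probes of like brightness in grey. The band is widest for dim probes, and 4 member probes, of *PGF*, *FLT1* and *NRP1*, lie below it.

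Processing the arrays in 11 other ways changed the sizes more than the directions. *VEGFC*, *PGF*, *FLT1*, *KDR* and *NRP1* were lower in LN and *VEGFB* and *VEGFD* were higher in all 12 settings, which use the same 2 arrays and so repeat nothing. *VEGFA* was lower in 1 setting, at -0.0096 after subtracting each array's 75th percentile, and *NRP2* was higher in 1, at 0.58 when the probe below background was averaged in. *FLT1* had the widest range of the 5 lower genes, from -0.41 to -0.050, and *KDR* ran from -0.18 to -0.045. *FLT1* was past 0.322 lower in 3 settings, beside 13.6% of all genes with the 75th percentile, 11.4% without normalization and 9.19% with the brightest probe. *NRP2* was past it lower in the first 2 of these, and higher without a filter on dim probes, beside 12.2% of all genes.

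**Figure D4:**
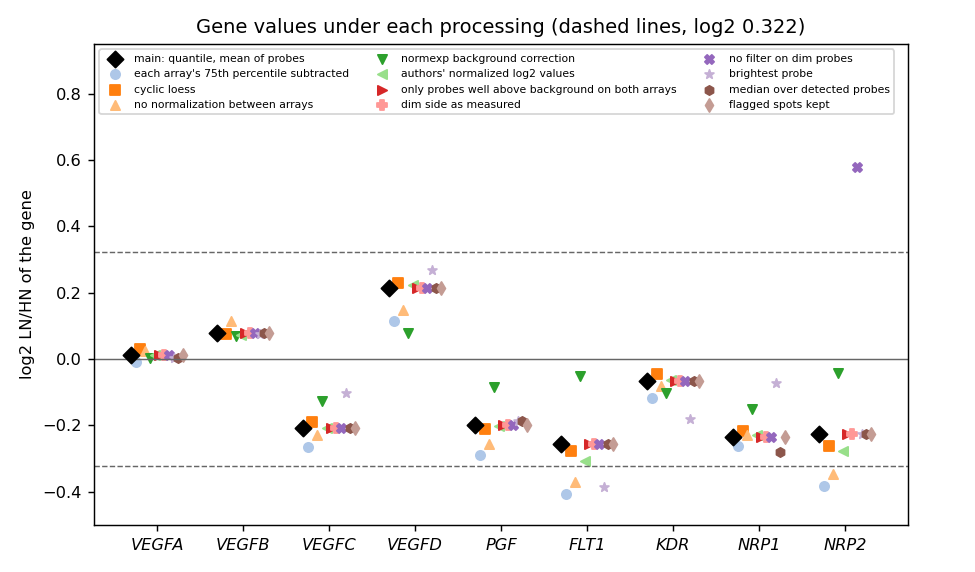
Log2 LN/HN (vertical axis) of each of the 9 genes under the 12 processing settings, 1 symbol per setting, with the reported value as a black diamond and dashed lines at 0.322 on either side. *VEGFA* and *VEGFB* stay close to 0, *FLT1* runs from -0.41 to -0.050, and *NRP2* has a single point above 0, at 0.58.

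Genes around the receptors were taken from lists of the same pathway. Of 38 genes that act downstream of VEGF receptors, 31 had a value, 14 lower and 17 higher in LN, with a median of 0.060 that ran from -0.0038 to 0.060 over the settings. Past 0.322 were 2 of 31 lower and 1 higher, beside 9.11% and 8.85% of all genes. *NOS3*, the endothelial nitric oxide synthase, had a log2 signal of 9.21 in HN and 8.71 in LN, a difference of -0.50 ± 0.067 (SD over 2 probes). *PTK2*, the focal adhesion kinase, had 5.20 and 4.52, a difference of -0.67 from 1 probe, and of -0.27 after normexp background correction, no longer past 0.322. *PTGS2*, which makes prostaglandins, was higher, at 4.89 in HN and 5.91 in LN, a difference of 1.02 from the 1 of its probes that was detected, and of 0.37 after normexp.

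The modulators of the VEGF axis listed include proteins that process or bind the ligands, integrins, Notch pathway members and promoters as well as inhibitors of vessel growth. Of 12 with a value among 20 listed, 9 were lower and 3 higher, with a median of -0.19 (-0.27 to -0.13 over the settings). Past 0.322 were 3 lower and 1 higher, beside the same shares of all genes. The lower ones were *VASH1*, a secreted inhibitor of vessel growth, and its relative *VASH2*, at -0.54 and -0.43, and *THBS1*, thrombospondin, at -0.34. After normexp they were -0.24, -0.321 and -0.23, none of the 3 past 0.322. For *THBS1*, 2 of 6 probes were measured on 1 array only and enter as a limit. *ADAMTS1*, a protease that can bind *VEGFA*, was higher by 0.43 ± 0.26 (SD over 3 probes), and by 0.094 after normexp and 0.14 with its brightest probe.

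Of 10 regulators of *VEGFA* transcription, all with a value, 4 were lower and 6 higher, with a median of 0.084 that ran from -0.024 to 0.11 over the settings. *EGLN3*, a prolyl hydroxylase that marks hypoxia-inducible factors for breakdown and is itself induced by them, had 5.30 in HN and 6.15 in LN, a difference of 0.85 from 1 probe, and of 0.33 after normexp. *EPAS1*, the hypoxia-inducible factor prominent in endothelium, differed by -0.55, with 1 of its 2 probes entering as a limit, and by -0.097 after normexp. *SP1* differed by 0.325, from probes at 0.074 and 0.58, and was not past 0.322 with the 75th percentile (0.27), without normalization (0.30), after normexp (0.068) or with its brightest probe (0.074). *HIF1A* was 8.75 in HN and 8.99 in LN, a difference of 0.25, named here after its value was seen. *VEGFA* itself differed by 0.013 beside them.

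Class 3 semaphorins and plexins share the neuropilins with the VEGF ligands. Only 4 of 12 had a value, 1 lower and 3 higher. *PLXNA2*, a plexin that signals with *NRP1*, had 4.89 in HN and 4.39 in LN, a difference of -0.50, and of -0.16 after normexp. *SEMA3D* was higher by 0.38 at log2 signals of 2.90 and 3.29, close to the background, and was lower by 0.021 after normexp. It was also short of 0.322 with the 75th percentile (0.19), cyclic loess (0.23) and no normalization (0.22), and was 1.13 with all 4 of its probes averaged, of which 1 was detected.

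VEGF receptors are carried mainly by endothelial cells, so the endothelial markers were set beside them. All 15 were matched and detected, 13 were lower in LN and 2 higher, and the median was -0.25 (-0.28 to -0.21 over the settings). *CLDN5*, a tight junction protein, differed by -0.39 ± 0.025 (SD over 3 probes), the transcription factor *SOX18* by -0.52 (1 probe), *EGFL7* by -0.45 ± 0.096 (SD over 4 probes) and *ECSCR* by -0.33 ± 0.086 (SD over 2 probes). The 2 higher ones, named after their values were seen, were *VWF*, the von Willebrand factor, at 0.024 ± 0.46 (SD over 5 probes), and the transcription factor *ERG* at 0.27 ± 0.99 (SD over 3 probes), each with 1 probe entering as a limit. Both were below 0 in some settings, *VWF* running from -0.13 to 0.085 and *ERG* from -0.31 to 0.35. *CLDN5*, *SOX18*, *EGFL7* and *ECSCR* were the 4 of 15 genes past 0.322 lower, and 0 were past it higher, beside 9.11% and 8.85% of all genes. *EGFL7* was -0.31 with its brightest probe, and *ECSCR* was -0.30 without normalization and -0.31 in the authors' normalized values, each short of 0.322. The median log2 signal of the markers' brightest probes was 10.73 in HN and 10.54 in LN, and their summed signal had a log2 LN/HN of -0.32. The median of the receptors and neuropilins was -0.23 beside this (-0.322 to -0.076 over the settings), and *CDH5*, the endothelial cadherin at -0.19, is counted both here and among the modulators. The part of endothelial cell number in the receptor values was not tested.

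Markers of other cells of the vessel wall differed in their direction. Of 9 pericyte and smooth muscle markers with a value, 7 were lower and 2 higher, with a median of -0.30 (-0.34 to -0.15 over the settings), 4 past 0.322 lower and 1 higher, beside the same shares of all genes. Among them *KCNJ8*, a potassium channel subunit of pericytes, differed by -0.54, and the contractile proteins *TAGLN* and *ACTA2* each by -0.33. The fourth was *MYH11*, smooth muscle myosin, at -0.49 ± 0.32 (SD over 3 of its 4 detected probes, -0.59 to -0.29 over the settings), named after its value was seen. Its other detected probe gave no value, because the side not well above background was not the lower side. *TAGLN* was short of 0.322 without normalization (-0.317) and after normexp (-0.29), and *ACTA2* without normalization (-0.30) and in the authors' normalized values (-0.31). The pericyte receptor *PDGFRB* was higher by 0.49 (0.064 to 0.88 over the settings, so not past 0.322 in all), with 1 of 3 probes entering as a limit, and the pericyte proteoglycan *CSPG4* by 0.11, both named after their values were seen. All 5 lymphatic markers had a value, 2 lower and 3 higher, with a median of 0.12 (0.0022 to 0.13 over the settings). *LYVE1*, the hyaluronan receptor of lymphatic vessels that some macrophages also carry, was higher by 0.36 ± 0.29 (SD over 3 probes), by 0.23 after normexp and by 0.089 with its brightest probe. *PROX1*, the transcription factor that sets lymphatic identity, differed by -0.21 and is named after its value was seen.

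**Figure D5:**
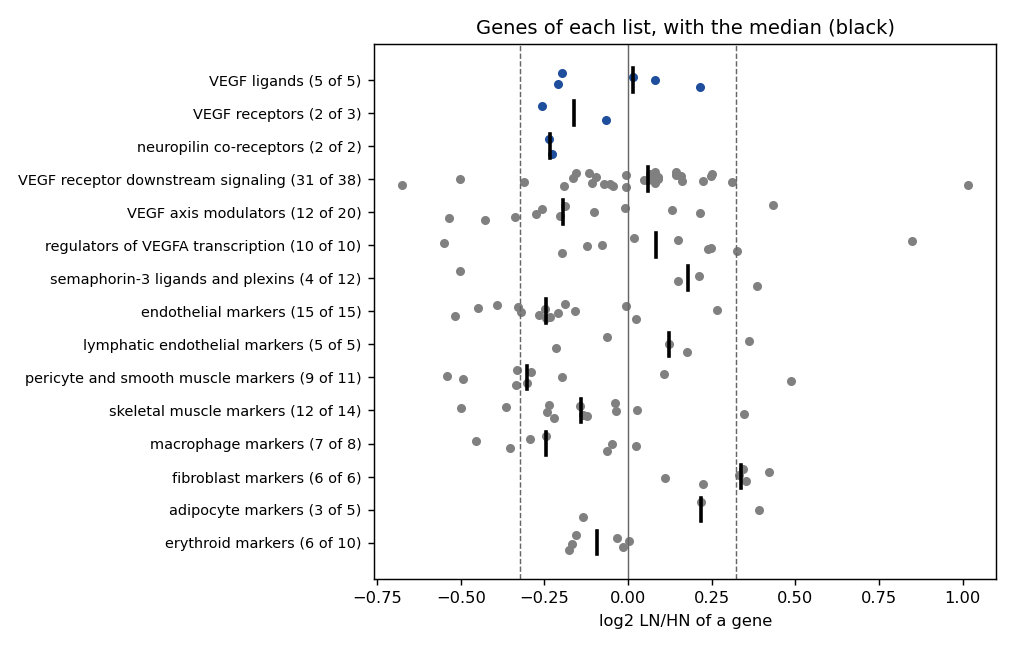
Log2 LN/HN (horizontal axis) of each gene with a value in the 15 gene lists (rows, with the number with a value of the number listed), with black bars for the list medians and dashed lines at 0.322 on either side. The receptors and neuropilins lie to the left of 0 as do 13 of 15 endothelial markers, whereas the ligands lie on both sides.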

How the data were processed

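RNA of 1 pool per group was measured on 2 Agilent arrays. The authors extracted spot intensities with Agilent Feature Extraction 11.0.1.1 (submitters' processing notes) and deposited them background-corrected, not normalized between arrays. The authors' normalized table, on the log2 scale as judged from its values, covers 30027 probes and was used as an alternative.

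Log2 intensities of 43803 non-control spots were quantile-normalized with limma 3.58.1 (R 4.3.3). Flagged spots were removed (13), and spots averaged per probe (Python 3.11.15, pandas 2.3.3, numpy 2.4.6, matplotlib 3.10.9). Probes well above background on either array were kept as detected. A dim side, not well above background, was raised to the lowest log2 signal well above background on its array (2.27 on HN, 2.82 on LN) where it lay under that, and was otherwise kept. A gene is the mean of its detected probes, without those whose dim side was then not lower than the other side. Probes were named by RefSeq transcript (26743 probes, 12603 symbols); coordinates were not used here. The steps were tested on simulated data with changes larger than any member's reported value, which does not cover differences as small as those of the members. The alternative with normexp (offset 50) used the median spot and background signals, because the deposited files hold no mean signal. The genes and the 15 lists were chosen with earlier results of these data known. Every member is named with all probes. From each other list, genes past 0.322 are named, or, where more than 4 were, the 4 largest with all probes measured on both arrays. Genes named outside this rule are examples of their list. Where a list had none past this size, its highest and lowest genes are named.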

Additional observations from a re-analysis of the deposited data

How the results depend on the processing

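No paired analysis was possible because each group has 1 array, and leaving out a replicate was not possible for the same reason. Against 0 members past 0.322 lower in LN, the count was 2 after subtracting each array's 75th percentile (*FLT1* at -0.41 and *NRP2* at -0.38, with 13.6% of all genes past this size), 2 without normalization (*FLT1* at -0.37 and *NRP2* at -0.35, 11.4%) and 1 with the brightest probe of each gene (*FLT1* at -0.38, 9.19%). Against 0 higher, 1 was found with dim probes kept (*NRP2* at 0.58, 12.2%). The median of the receptors and neuropilins was -0.076 after normexp, which changed both the signal used and its offset, and the cause was not tested. *SEMA3D* was -0.021 after normexp. Over all genes, 1781 were past 0.322 lower and 1731 higher, 391 and 319 after normexp and 3592 and 3251 without a filter. The higher share of these calls was 49.3%, 30.7% with the 75th percentile and 39.3% without normalization. *NRP2* rests on 1 dim probe.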

Other observations

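Marker genes of other cell types of the muscle were described in the same way, and beside their counts stand 9.11% of all genes past 0.322 lower in LN and 8.85% past it higher. All 6 fibroblast markers were higher in LN, with a median of 0.34 (0.29 to 0.36 over the settings), and 4 were past 0.322: the collagens *COL1A1* (0.34), *COL1A2* (0.42) and *COL3A1* (0.33), and *LUM* (0.35), a proteoglycan of the collagen matrix. *COL1A1* was 0.315 and *COL3A1* 0.31 in the authors' normalized values, *COL3A1* was 0.31 with the 75th percentile and 0.3215 with cyclic loess, and *LUM* was 0.25 after normexp and with its brightest probe, each short of 0.322. Of 7 macrophage markers with a value, 6 were lower and 1 higher, with a median of -0.24 (-0.29 to -0.13 over the settings). *C1QB*, a complement subunit, differed by -0.45 and the lysosomal protein *CD68* by -0.35, which was -0.13 after normexp and -0.28 with its brightest probe. Of 12 skeletal muscle markers, 10 were lower and 2 higher, with a median of -0.14 (-0.17 to -0.064 over the settings). *MB*, myoglobin, differed by -0.37, and by -0.31 with its brightest probe, and the fast myosin *MYH1* by -0.50, and the perinatal myosin *MYH8* was higher by 0.35 ± 0.29 (SD over 3 probes), and by 0.041 with its brightest probe. Of 3 adipocyte markers with a value, 1 was lower and 2 higher, with a median of 0.22 (0.037 to 0.23 over the settings). The fatty acid carrier *FABP4*, at 0.39, was past 0.322. *PLIN1*, a lipid droplet protein named after its value was seen, was at -0.14 from 1 of its 2 probes. It ran from -0.22 to 0.049 over the settings, so that its direction was not the same in all. Of 6 erythroid markers with a value, 5 were lower and 1 higher and 0 were past 0.322, with *HBG* at -0.18 as the lowest and *HBA* at 0.0021 as the highest. *HBA* ran from -0.024 to 0.029 over the settings, on both sides of 0.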
